A study of Mus musculus with 81 samples.

Results

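The cytosolic ribosomal protein genes were followed in mouse thymic lymphomas and normal thymus. Members were all symbols that start with Rpl or Rps and go on with a number, with an optional final a, x or y, together with Rplp0, Rplp1 and Rplp2, provided their mean level was at least 5 CPM (counts-per-million) over the mice. All 75 matching symbols met this rule, out of 51826 genes in the table: 43 of the large subunit, 3 of the P stalk and 29 of the small subunit. The lowest members were Rps12 at 29 CPM and Rpl10 at 31.9 CPM, so none lay near the threshold.

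All 40 mice were C57BL/6 x 129S4Sv/Jae animals with 3 engineered alleles in common: Plk4 under doxycycline control at Col1a1, and both the reverse tetracycline transactivator rtTA and centrin-GFP at Rosa. Centrioles duplicate under the kinase Plk4, whose excess gives extra centrosomes, and the series addresses how aneuploidy affects tumour development. The normal thymus group held 8 untreated p53+/+ mice. Lymphomas came from 10 untreated p53-/- mice, from 9 p53-/- mice given doxycycline for 2 weeks beginning when they were 30 days old, and from 12 p53+/- mice given the same treatment. The p53+/+ thymus and the lymphomas thus differed in p53 genotype as well as in being tumours, and the treated p53+/- group had no untreated p53+/- lymphoma beside it. One untreated p53+/- normal thymus (mouse 819) entered no test. Total RNA from frozen thymic tissue gave 81 libraries. Biopsies of 1 tumour were summed, so that the mouse was the replicate.

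Each cytosolic ribosome is built from a large and a small subunit, and every ribosomal protein is needed in about equal amount, so these genes are usually transcribed and translated as a coordinated set. Their messenger RNAs begin with a run of pyrimidines, the terminal oligopyrimidine motif, through which growth signalling by mTOR and the protein LARP1 controls their translation. Free Rpl5 and Rpl11 bind Mdm2 and thereby stabilise p53, and RPL5, RPL10, RPL11 and RPL22 are mutated or deleted in a share of human T-cell leukaemias. The mouse genome also holds many processed pseudogenes, intronless copies of ribosomal protein messages, and reads from a gene can be assigned to its copies.

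The copies set how far a member's count could be read. Near copies were pseudogenes, by annotated type or by name, at least 90% identical to a member over at least 70% of their length. Of the counts on members and near copies, 33.3% lay on the 946 copies. Genes not typed or named as pseudogenes were not searched, so shares on copies can be too low. The share on copies was above 50% for 24 members and under 5% for 22. It was 96.4% for Rpl5, 96.7% for Rpl10, 81.2% for Rps7 and 0.2% for Rps27. RSEM, named in the submitters' processing notes, divides ambiguous reads among such loci, and 95.6% of the member values were not whole numbers (to within 1e-09), against 14.25% of the values of all genes. Every result is therefore given as counted, and where it matters also with the near copies added to their member, an alternative chosen after seeing the data. Rpl5, on the plus strand of chromosome 5 (107900502 to 107909005, GRCm38), matches the copy Gm15500, on the minus strand of chromosome 7 (114705217 to 114706235), at all 894 coding bases. Rps7, on the minus strand of chromosome 12 (28630854 to 28635953), and its copy Gm6472, on the minus strand of chromosome X (152909505 to 152910155), differ at 3 of 585 coding bases, T26G, G48A and G123T, counted from the first coding base of Rps7. The first 60 coding bases of each pair, from the GRCm38 sequence, show how little separates gene from copy, with capitals at the differing bases.
Rpl5: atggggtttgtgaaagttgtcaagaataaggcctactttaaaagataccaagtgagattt
Gm15500: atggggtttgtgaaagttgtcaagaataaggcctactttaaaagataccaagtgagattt
Rps7: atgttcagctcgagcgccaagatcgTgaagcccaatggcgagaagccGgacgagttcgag
Gm6472: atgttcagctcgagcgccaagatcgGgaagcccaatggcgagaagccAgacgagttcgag

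RefSeq promoter windows (GRCm38.p6), from 250 bases before to 50 bases after the annotated start, were found for 55 of the 75 members. An unbroken run of at least 8 C or T on the gene's strand, within 50 bases of the start on either side, was present in 48 of the 55 (87.3%) against 39.3% of 27025 genes. CGGAAG, the core of an ETS-family site, was found on either strand in 69.1% of member windows and 18.8% of all windows. GCCATCTT, the core of a YY1 site, was found in 9.1% and 3.2%, and TATAAA in 10.9% and 15.7%. These matches are letters in a window and were not measured as binding. Below are 60 bases, 40 before to 20 after the start, of 3 members that rose more than the family in every lymphoma group (Rpl5, Rpl15 as measured with copies, Rpl35) and 3 that stayed below it (Rps27, Rpl27a, Rps9), with the longest pyrimidine run in capitals. Rplp0, also above the family in every group, is shown beside them because its longest run near the start has only 7 bases. A run of at least 8 therefore stands in members of both sets and is missing from one above the family.
Rpl5, chr5:107900488-107900547, plus strand: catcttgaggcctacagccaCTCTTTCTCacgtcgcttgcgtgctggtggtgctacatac
Rpl15, chr14:18270967-18271026, minus strand: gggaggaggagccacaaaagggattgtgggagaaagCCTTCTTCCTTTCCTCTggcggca
Rpl35, chr2:39005112-39005171, minus strand: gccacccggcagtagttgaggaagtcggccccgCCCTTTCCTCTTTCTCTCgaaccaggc
Rplp0, chr5:115559427-115559486, plus strand: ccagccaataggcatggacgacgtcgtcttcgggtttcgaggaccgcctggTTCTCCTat
Rps27, chr3:90213629-90213688, minus strand: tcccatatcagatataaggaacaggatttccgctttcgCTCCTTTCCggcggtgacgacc
Rpl27a, chr7:109519155-109519214, plus strand: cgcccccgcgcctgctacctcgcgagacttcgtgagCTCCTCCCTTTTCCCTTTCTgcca
Rps9, chr7:3704001-3704060, plus strand: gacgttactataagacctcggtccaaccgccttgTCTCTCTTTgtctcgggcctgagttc

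Several values moved with the groups across the whole series. Depth per mouse ran from about 5009300 counts (normal mouse 624) to 98591000. Mitochondrial genes took 3.73% to 12.7% of counts in normal thymus and 0.662% to 6.01% in lymphomas. The summed level of 12 proliferation genes was 651 to 3533 CPM in normal thymus and 2713 to 6317 CPM in lymphomas, and 11 of the 12 were called higher in each lymphoma group. All 7 fat markers were called lower in each lymphoma group (summed 1374 to 12633 CPM in normal thymus, 37.6 to 257 CPM in lymphomas, with Ucp1 and Cidea at 0 in at least 1 lymphoma), as were 6, 8 and 7 of 9 thymic epithelial markers (Krt5, Psmb11 and Foxn1 at 0 in at least 1 lymphoma). Values given as 3 in a row over the lymphoma groups follow this order throughout: p53-/- without doxycycline, p53-/- with it, p53+/- with it. Where 3 log2 CPM values are given for 1 group, they are its lowest, median and highest. B-cell markers were called lower for 0, 7 and 6 of 8 genes, endothelial markers for 2, 2 and 3 of 4 and erythroid markers for 0, 1 and 3 of 5. Of the 9 T-cell markers 3, 2 and 1 were called lower and 1 higher in each group, and they summed to 707 to 6118 CPM in normal thymus and 333 to 5310 CPM in lymphomas, none at 0. Normal mouse 387 had the lowest T-cell and highest fat signal of its group, lymphoma mouse 881 had T-cell markers at 333 CPM and B-cell markers at 3945 CPM, and ribosomal RNA genes took 28.1% of counts in lymphoma mouse 643. In bulk tissue, fewer cells of a type and less RNA per cell cannot be told apart, and the part of these values in the results on ribosomal protein genes was not tested.

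The ribosomal protein family was higher in all 3 lymphoma groups than in normal thymus. Members took 1.73%, 3.56% and 4.96% (lowest, median, highest) of each mouse's counts in normal thymus. In untreated p53-/- lymphomas the share was 2.63%, 5.54% and 6.80%, and 8 of 10 lay above every normal. In treated p53-/- lymphomas it was 4.21%, 5.13% and 9.98%, with 6 of 9 above every normal. In treated p53+/- lymphomas it was 4.66%, 5.64% and 7.89%, with 8 of 12 above every normal. The group means were 3.47% ± 0.913 (SD, n = 8), 5.43% ± 1.15 (SD, n = 10), 5.88% ± 1.76 (SD, n = 9) and 5.84% ± 1.1 (SD, n = 12) in the same order, and mouse 819 had 3.42%. Without mouse 643 the untreated p53-/- value was 5.74% ± 0.637 (SD, n = 9), and without mouse 857 the treated p53-/- value was 5.36% ± 0.916 (SD, n = 8). The groups overlapped in this share, and mouse 643, at 2.63%, was the only lymphoma below the normal median.

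The family level, the mean log2 CPM of the 75 members after scaling, weights each member equally and separated the groups more clearly. It was 7.40, 7.96 and 8.66 (lowest, median, highest) in normal thymus. The level was 8.71, 8.88 and 9.20 in untreated p53-/- lymphomas, all 10 above every normal. It was 8.56, 8.83 and 10.05 in treated p53-/- lymphomas, 7 of 9 above every normal, and 8.68, 9.04 and 9.62 in treated p53+/- lymphomas, all 12 above. The highest normal was mouse 624, the mouse with the fewest counts, and the lowest was mouse 387. The SD between mice was 0.35 in normal thymus, 0.20, 0.46 and 0.33 in the lymphoma groups, and the 0.46 fell to 0.27 without mouse 857, whose 4 biopsies included one of about 1030400 counts. The SD in normal thymus was 0.225 without mouse 624. Mouse 819 stood at 7.79, inside the normal range.

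**Figure D1:**
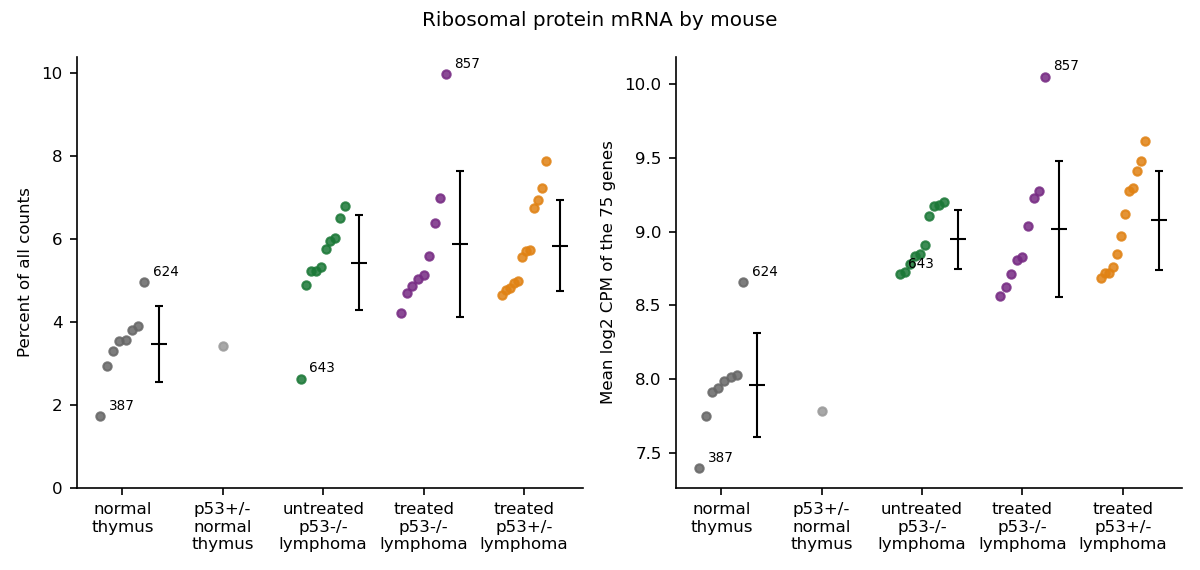
Share of each mouse's counts on the 75 members (left, percent) and family level (right, mean log2 CPM of the 75 members after scaling), each point 1 mouse, with the mean and SD of each group of more than 1 mouse. On the right all 10 untreated p53-/- and all 12 treated p53+/- lymphomas lie above the highest normal thymus (8.66), and mouse 857 stands apart at 9.98% and 10.05.

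Single members were tested with edgeR's quasi-likelihood test across all 17841 genes that passed its filter on low counts, with Benjamini-Hochberg adjustment, and all 75 members passed the filter. In untreated p53-/- lymphomas 51 members were called higher than normal thymus and 0 lower, where 23.2% of all genes were called higher and 17.6% lower. The doxycycline-treated p53-/- group had 56 higher and 0 lower, against 25.4% and 26.7% of all genes. The treated p53+/- group had 64 higher and 0 lower, against 25.6% and 25.3% of all genes. The median member rose by 0.78, 0.94 and 0.96 on the log2 scale, or 1.71-fold, 1.91-fold and 1.94-fold, where the median of all genes was 0.08, -0.04 and 0.00. With near copies added the counts were 54, 57 and 65 higher (23.3%, 25.4% and 25.5% of all genes), and the medians 0.74, 0.80 and 0.92. The 3 comparisons share their 8 normal mice and are not independent of each other.

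Calls were spread over both subunits, though the levels separated less in the small one. The mean level of Rpl and Rplp members lay above every normal in 10 of 10, 9 of 9 and 12 of 12 lymphomas. For Rps members it did so in 7 of 10, 6 of 9 and 8 of 12. Of the 43 large-subunit members 31, 33 and 37 were called higher, with medians of 0.87, 1.05 and 1.08. Of the 29 small-subunit members 18, 22 and 24 were called higher, with medians of 0.70, 0.77 and 0.90. As counted, no comparison called 10 of the 75 members: Rpl13a, Rpl21, Rpl23a, Rpl27a, Rpl29, Rpl35a, Rps9, Rps14, Rps15 and Rps27. As counted, Rpl23a had means of 7.55 log2 CPM in normal thymus and 8.04, 8.0 and 8.15 in the lymphoma groups. With copies added they were 8.98, 10.04, 10.04 and 10.01. The same means of Rps14 hardly moved, from 9.71, 10.06, 10.34 and 10.4 to 9.75, 10.11, 10.39 and 10.45. In 14, 12 and 18 members, every lymphoma of the group lay above every normal mouse, which was so for 6.77%, 11.4% and 9.76% of all genes. With copies added it was so in 26, 16 and 25 members, and in 7.01%, 11.8% and 10% of all genes. The plot of fold changes as counted and with copies shows all 75 members in each comparison.

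**Figure D2:**
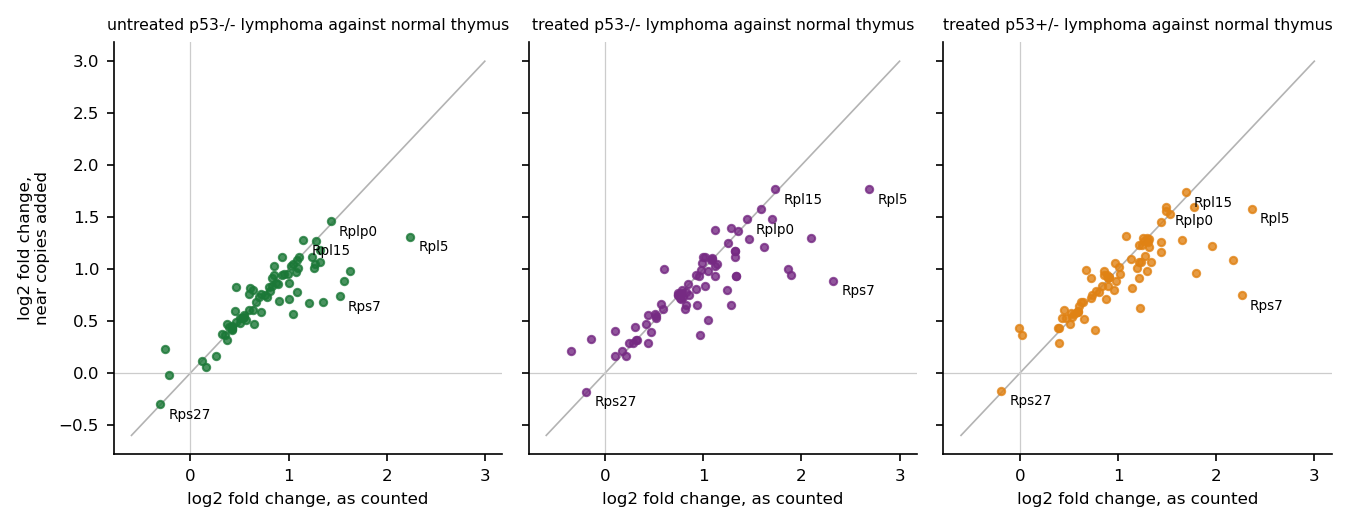
Log2 fold change of each of the 75 members against normal thymus as counted (x axis) and with near copies added (y axis), 1 panel per lymphoma group, with a line where both are equal. Nearly all points lie above 0, and Rpl5 (2.24, 2.69 and 2.36 as counted) and Rps7 lie far below the line.

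The Mdm2-binding and leukaemia-associated members are given beside the family as a whole, of which 68%, 74.7% and 85.3% were called higher, against 23.2%, 25.4% and 25.6% of all genes. Of the 10 ribosomal proteins known to bind Mdm2, 6, 8 and 8 were called higher, with medians of 0.64, 0.98 and 0.89. All 4 members of the T-cell leukaemia list were called higher in each comparison, and of the 17 genes mutated in Diamond-Blackfan anaemia, an inherited failure of red cell production, 12, 14 and 16 were. These lists overlap, since Rpl5 and Rpl11 stand in all 3. In the p53-/- tumours the p53 protein that free Rpl5 and Rpl11 would stabilise is missing.

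Rpl5, which carries the small 5S ribosomal RNA into the large subunit, had the largest fold change as counted in every comparison. With copies added, Rplp0 in untreated p53-/- (1.46) and Rpl15 in treated p53+/- lymphomas (1.74) had larger ones than Rpl5. Its level was 3.72, 3.92 and 5.14 log2 CPM in normal thymus and 5.12, 6.36 and 7.85 in untreated p53-/- lymphomas. It was 6.22, 6.69 and 8.0 in treated p53-/- and 5.74, 6.64 and 7.62 in treated p53+/- lymphomas. One untreated p53-/- lymphoma, mouse 202, overlapped the normals at 5.12, and the other 30 lymphomas lay above all of them. The log2 fold changes were 2.24 ± 0.35 (SE, adjusted p = 3.5e-06), 2.69 ± 0.35 (adjusted p = 1.04e-07) and 2.36 ± 0.35 (adjusted p = 8.06e-07). With its copies added Rpl5 rose by 1.31 ± 0.22, 1.77 ± 0.22 and 1.58 ± 0.22, and all 31 lymphomas lay above every normal (9.39 to 10.34 log2 CPM). The counts on the gene alone thus held a larger change than gene and copies together.

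Rpl11, the partner of Rpl5 in 5S RNA transport, rose in each comparison. As counted it was 7.67, 8.13 and 8.97 log2 CPM in normal thymus, and 6 of 10, 8 of 9 and 12 of 12 lymphomas lay above every normal. With copies added 10 of 10, 9 of 9 and 12 of 12 did. The fold changes of Rpl11 as counted were 0.76 ± 0.25 (adjusted p = 0.0134), 1.32 ± 0.25 (adjusted p = 3.12e-05) and 1.31 ± 0.24 (adjusted p = 3.09e-05). Rpl22, whose loss in mice promotes T-cell lymphoma, was 7.49, 7.78 and 8.63 log2 CPM in normal thymus. It reached 8.08, 9.02 and 9.90 in untreated p53-/-, 8.71, 9.20 and 10.71 in treated p53-/- and 8.76, 9.31 and 10.33 in treated p53+/- lymphomas. Only 3 untreated p53-/- lymphomas overlapped the normals, and no lymphoma fell below the normal range. Its fold changes were 0.95 ± 0.25, 1.35 ± 0.25 and 1.44 ± 0.25 (adjusted p = 0.00295, 3.19e-05 and 1.15e-05).

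Rps19, the gene most often mutated in Diamond-Blackfan anaemia, rose by 1.03 ± 0.23, 1.08 ± 0.22 and 1.29 ± 0.22, with adjusted p of 0.000472, 0.00014 and 1.21e-05. Its highest normal value was 9.47 log2 CPM in mouse 624, against a normal median of 8.30, and 7 of 10, 4 of 9 and 10 of 12 lymphomas exceeded it. Rps6, the small-subunit protein phosphorylated downstream of mTOR, rose by 0.78 ± 0.26, 1.24 ± 0.26 and 1.34 ± 0.26 as counted (adjusted p = 0.0154, 0.000155 and 5.09e-05). With its copies the mean level of Rps6 was 10.05 log2 CPM in normal thymus, against 7.98 as counted. In the lymphoma groups it was 10.89, 10.98 and 11.28 with copies, against 8.95, 9.33 and 9.42. The 4 X-linked members Rpl10, Rpl36a, Rpl39 and Rps4x were called higher in every comparison. Rps4x rose by 0.89 ± 0.18, 0.76 ± 0.18 and 1.32 ± 0.18. Rpl10 rose by 1.05 ± 0.22, 1.05 ± 0.21 and 1.27 ± 0.20 as counted, and by 0.57, 0.51 and 1.13 with its copies.

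The P stalk recruits elongation factors to the large subunit, and all 3 of its genes had positive fold changes. Rplp0, the base, was 10.08, 10.63 and 10.82 log2 CPM in normal thymus. It was 11.61, 12.06 and 12.67 in untreated p53-/-, 11.27, 12.19 and 12.77 in treated p53-/- and 11.29, 12.20 and 13.04 in treated p53+/- lymphomas. Every lymphoma lay above every normal. The fold changes were 1.43 ± 0.22, 1.45 ± 0.21 and 1.49 ± 0.21 (adjusted p = 3.48e-06, 9.53e-07 and 4.09e-07), and copies hardly moved them (1.46, 1.48 and 1.56). The arm proteins had smaller fold changes, 0.72, 0.42 and 0.64 for Rplp1 and 0.42, 0.31 and 0.58 for Rplp2. Of these, Rplp1 in untreated p53-/- and both in treated p53+/- lymphomas were called.

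To find members that departed from the family, the fit was repeated with library sizes set so that the mean log2 level of the members was equal in all mice. A departure is then a log2 fold change relative to the family. In untreated p53-/- lymphomas 12 members were called above the family and 15 below, where 5.09% of all genes were above and 47.3% below. In treated p53-/- lymphomas the counts were 17 and 18 (6.46% and 54.6% of all genes), and in treated p53+/- lymphomas 18 and 20 (5.81% and 59.3%). With near copies added they were 14 and 13 (6.03% and 43.8%), 17 and 17 (7.84% and 50%) and 16 and 17 (6.64% and 56.1%). Of the members called as counted, 9, 13 and 13 above and 12, 16 and 16 below kept the call with copies added. Listed side by side, the members above the family in each of the 3 comparisons and under both ways of counting were Rpl3, Rpl5, Rpl35, Rpl37, Rplp0 and Rps25. Those below included Rpl13a, Rpl18, Rpl27a, Rpl28, Rpl34, Rpl35a, Rplp2, Rps9, Rps16 and Rps27.

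Above the family, Rpl5 departed by 1.56 ± 0.33, 1.79 ± 0.34 and 1.36 ± 0.32 as counted and by 0.62 ± 0.15, 0.92 ± 0.15 and 0.68 ± 0.15 with copies. Rplp0 departed by 0.61 ± 0.17, 0.54 ± 0.16 and 0.49 ± 0.15 as counted, and by 0.73, 0.69 and 0.66 with copies. Rpl35, a protein at the exit of the large subunit's tunnel for the growing chain, departed by 0.59 ± 0.17, 0.67 ± 0.16 and 0.57 ± 0.16. Rpl15 passed in all 3 comparisons with copies added. Its level was 7.06, 7.5 and 8.03 log2 CPM in normal thymus and at least 8.08 in every lymphoma, so the groups did not overlap. Its departures were 0.34 ± 0.16 (adjusted p = 0.0755), 0.81 ± 0.16 (adjusted p = 7.89e-05) and 0.70 ± 0.16 (adjusted p = 0.000207) as counted, and 0.56 ± 0.15, 0.95 ± 0.15 and 0.84 ± 0.15 with copies.

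The large departures of Rps7 and Rpl30 were not called once copies were added. Rps7, a small-subunit protein, was 4.10, 5.50 and 7.94 log2 CPM in normal thymus, and 6 of 10, 6 of 9 and 7 of 12 lymphomas lay above that wide range. It rose by 1.52 ± 0.50, 2.32 ± 0.51 and 2.26 ± 0.54 as counted and by 0.74, 0.89 and 0.75 with copies. Its departures of 0.88, 1.41 and 1.23, the first not called (adjusted p = 0.0501), became 0.03, 0.04 and -0.15, none called. Rpl30 departed by 0.89, 1.05 and 1.22 as counted, all called, and by 0.17, 0.10 and 0.18 with copies. Rpl9 kept positive departures both ways, 0.94, 1.27 and 1.04 as counted and 0.30, 0.47 and 0.34 with copies, the first of these not called (adjusted p = 0.0802).

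Below the family, Rps27, a zinc-finger protein of the small subunit, was among the most abundant members per length in normal thymus and was called in no comparison. It was 8.61, 9.28 and 9.62 log2 CPM in normal thymus, 8.23, 9.23 and 9.62 in untreated p53-/-, 7.80, 8.79 and 10.95 in treated p53-/- and 8.23, 9.28 and 10.10 in treated p53+/- lymphomas. The groups overlapped throughout. Its fold changes were -0.31 ± 0.32, -0.19 ± 0.31 and -0.19 ± 0.30 (adjusted p = 0.462, 0.629 and 0.628), and its departures -1.09 ± 0.22, -1.27 ± 0.22 and -1.21 ± 0.20 (adjusted p = 0.00013, 7.74e-06 and 4.76e-06). Only 0.2% of its counts lay on the copies searched, and the departures with copies added were -1.01, -1.14 and -1.11. The paralogue Rps27rt was not counted among these copies. Its median was 5.89 log2 CPM in normal thymus (3.0 to 8.66) and 8.16, 7.52 and 6.85 in the lymphoma groups. Its part in the departures of Rps27 was not tested.

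Rpl27a, a large-subunit protein, was 7.82, 8.34 and 8.59 log2 CPM in normal thymus, with lymphoma medians of 8.22, 7.84 and 8.37. Its departures were -1.07 ± 0.17, -1.31 ± 0.16 and -1.04 ± 0.15 as counted and -0.50 ± 0.12, -0.63 ± 0.11 and -0.51 ± 0.11 with copies, called both ways. Rpl35a, a large-subunit protein and Diamond-Blackfan gene, departed by -1.02 ± 0.26, -1.12 ± 0.25 and -0.98 ± 0.24 as counted and by -0.74, -0.47 and -0.52 with copies. Rps14 departed by -0.61, -0.42 and -0.44 and Rps15 by -0.34, -0.78 and -0.60, all called except Rps14 in treated p53-/- lymphomas (adjusted p = 0.0512). With copies added, Rps14 in treated p53+/- (-0.35, adjusted p = 0.0883) and Rps15 in untreated p53-/- lymphomas (-0.23, adjusted p = 0.106) were not called either. Rps26 stood below the family in treated p53-/- lymphomas (-0.84 ± 0.22, adjusted p = 0.00149) and departed by -0.17 and -0.25, not called, in the other groups. Compared directly between lymphoma groups, its level differed by -0.54 ± 0.26 (SE) in treated against untreated p53-/- (edgeR adjusted p = 0.424) and by 0.61 ± 0.25 in treated p53+/- against treated p53-/- (adjusted p = 0.937), neither called.

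Departures were compared with the chromosome on which each member lies. Across the 75 members, the departure went with the median log2 fold change of the other genes on the member's chromosome, with Pearson r of 0.62, 0.655 and 0.666 and Spearman rho of 0.60, 0.68 and 0.67 as counted, and Pearson r of 0.60, 0.67 and 0.69 with copies. These are correlations across genes, which are not independent and share chromosomes, so they carry no p. Chromosome 7 holds 14 members, among them Rpl27a, Rplp2, Rps9 and Rps16. Their median departure was -0.39, -0.41 and -0.42, while the other genes of chromosome 7 had a median fold change of -0.25, -0.43 and -0.31, and 8 of the 14 were called below the family in each comparison, a share near that of all genes (47.3%, 54.6% and 59.3%). Chromosome 5 holds 5 members, Rpl5, Rpl6, Rpl9, Rpl21 and Rplp0, all with positive departures (medians 0.61, 0.64 and 0.49), and its other genes had medians of 0.49, 0.46 and 0.42. The 4 members of chromosome 15 (Rpl3, Rpl8, Rpl30 and Rpl37) had medians of 0.50, 0.76 and 0.74, and its other genes 0.35, 0.26 and 0.39. Rps27 and Rpl34, the pair on chromosome 3, had median departures of -0.73, -0.84 and -0.82 where the other genes moved by -0.07, -0.31 and -0.22. All 5 members of chromosome 4 and the pair on chromosome 12 had positive departures in each comparison, and all 4 of chromosome 10 and the pairs on chromosomes 8 and 18 had negative ones. Some chromosomes were split. On chromosome 11, 3, 4 and 3 of 7 members had positive departures, on chromosome 9 it was 3, 3 and 2 of 5, on chromosome 2 it was 3, 3 and 2 of 4, and the pair on chromosome 16 lay on opposite sides in each comparison. On chromosome 7, 2, 1 and 3 of the 14 members had positive departures. Rps19 was among them each time (0.27, 0.17 and 0.29), called above the family only in treated p53+/- lymphomas.

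**Figure D3:**
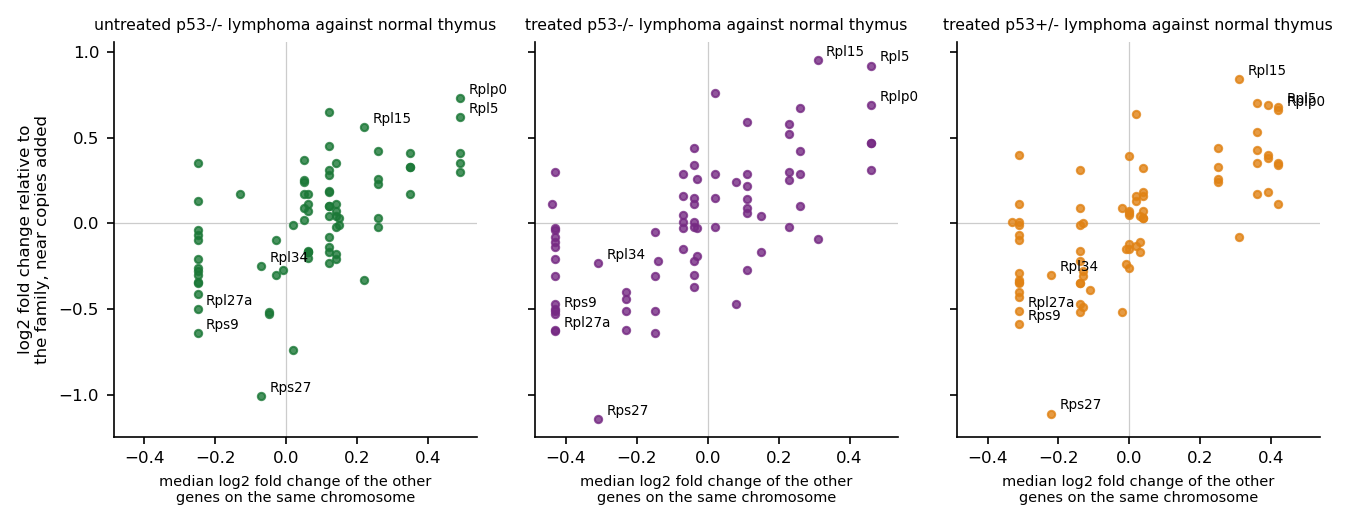
Log2 fold change of each member relative to the family, near copies added (y axis), against the median log2 fold change of the other genes on its chromosome (x axis), 1 point per member and 1 panel per lymphoma group. Points run from chromosome 7 members such as Rps9 and Rpl27a at lower left to chromosome 5 members such as Rpl5 and Rplp0 at upper right (Pearson r 0.60, 0.67 and 0.69 across 75 members).

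The same relation was then examined between tumours rather than between genes. For each autosomal gene, its log2 CPM was correlated over the 31 lymphomas with the level of its chromosome, with 100000 permutations and Benjamini-Hochberg adjustment over all 15793 genes. The level of a chromosome was the median, over its genes outside the family, of the log2 difference from the normal mean, less the same median over all autosomes. This comparison was added after seeing the data. Of the 71 autosomal members 32 were called with a positive r and 0 with a negative r. Of all 15793 genes 29.1% were called positive and only 67 genes negative. The median r was 0.41 for members and 0.28 for all genes. With near copies added 39 of 71 members were called, and 29.7% of all genes.

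Rpl8 and Rpl15 had the highest values, and Rpl6 is added as a member on chromosome 5, all chosen after their values were seen. Rpl8, on chromosome 15, had Pearson r of 0.69 (permutation p = 3e-05, adjusted p = 0.000629) and Spearman rho of 0.57 (permutation p = 0.00104), and r was 0.62 without the 2 lymphomas farthest from the median. Within the 3 lymphoma groups, in the order used throughout, r was 0.87, 0.40 and 0.73. Rpl15, on chromosome 14, had r of 0.69 (permutation p = 4e-05, adjusted p = 0.000757), rho of 0.68 (permutation p = 6e-05) and 0.64 without the 2 farthest. Within groups its r was 0.92, 0.38 and 0.37, and the difference between these values was not tested.

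Rpl6, on chromosome 5, had r of 0.64 (permutation p = 8e-05, adjusted p = 0.00119), rho of 0.63 (permutation p = 0.00015), 0.58 without the 2 farthest, and 0.77, 0.58 and 0.52 within groups. All 3 had positive values in every group.

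**Figure D4:**
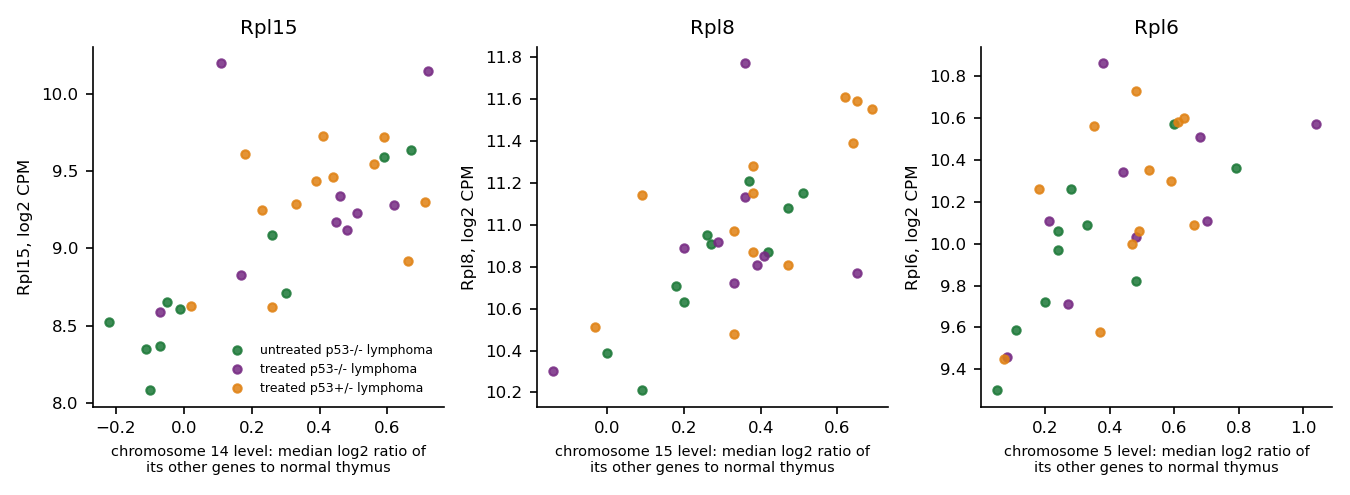
Level of Rpl15, Rpl8 and Rpl6 (log2 CPM) against the level of chromosomes 14, 15 and 5 (median log2 difference from normal of genes outside the family), each point 1 of 31 lymphomas, by group. Points rise from left to right in each panel, with r of 0.69, 0.69 and 0.64.

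Members differed in how much they varied between tumours. The spread was taken as the SD over lymphomas of a member's level minus the family level of the same mouse. Its median over the 75 members was 0.32, against 0.20 in the normals and 0.28 in the lymphomas with copies added. The largest spreads were 1.75 for Rpl21, 1.19 for Rpl29, 0.83 for Rps7, 0.75 for Rpl24, 0.71 for Rpl23a and 0.69 for Rpl5. With copies added these fell to 1.28, 0.55, 0.31, 0.37, 0.26 and 0.35, all but Rpl21 to less than 0.6. Rpl21 ranged from 0.95 (mouse 978) to 7.75 log2 CPM already in normal thymus and from 2.93 (mouse 908) to 8.72 in lymphomas, and its fold changes of 1.32, 1.33 and 1.21 were not called (adjusted p = 0.131, 0.109 and 0.136). Its values fell into separate levels: normal mice 961 and 978 had 1.1 and 0.95 log2 CPM, lymphoma mice 908, 894, 884 and 857 had 2.93, 3.53, 3.58 and 3.68, and every other mouse had at least 5.55. Among the smallest spreads were 0.17 for Rpl34 and 0.19 for Rplp2.

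**Figure D5:**
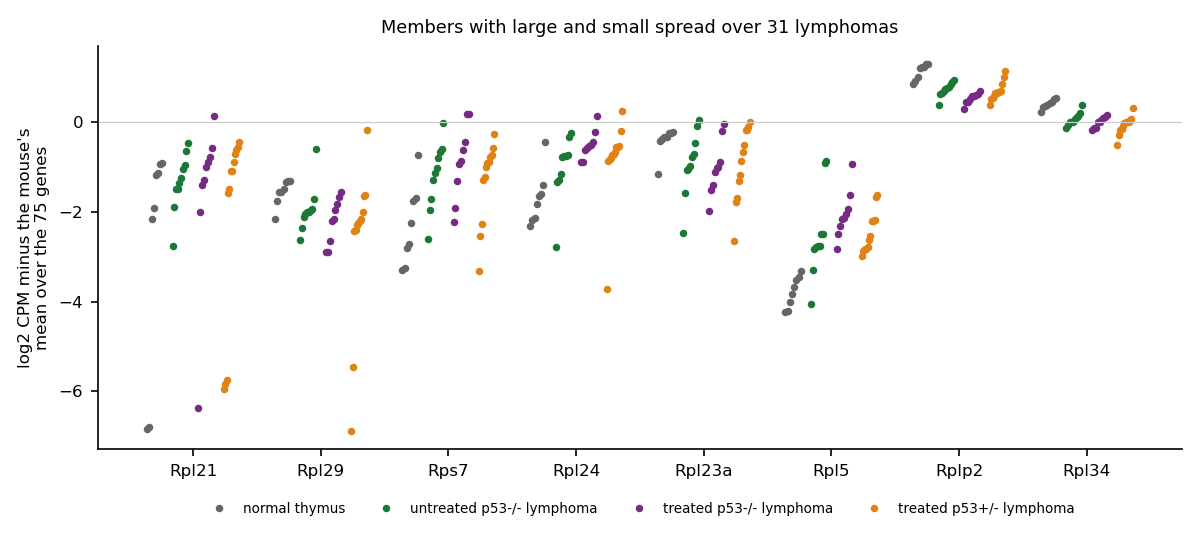
Log2 CPM minus the mouse's mean over the 75 members, as counted, for the 6 members with the largest spread over lymphomas and for Rplp2 and Rpl34, which had small ones, each point 1 mouse. Rpl21 and Rpl29 (SD 1.75 and 1.19) have single mice far below the rest, while Rplp2 and Rpl34 (SD 0.19 and 0.17) form narrow bands.

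In 13 tumours with 4 or 5 biopsies each (54 libraries), the family level varied within a tumour by an SD of 0.239 on average, from 0.087 (mouse 903) to 0.389 (mouse 870). The SD between the means of these tumours was 0.354. That SD includes mouse 857, whose biopsies ran from 9.76 to 10.11, where no biopsy of the other tumours exceeded 9.67. It was not computed without mouse 857. In 7 of the 13 tumours the highest level was in the shallowest biopsy. The range over biopsies was under 0.5 in 4 tumours and largest in mouse 862, from 8.33 to 9.18.

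Among the lymphoma groups no member was called in any of the 3 comparisons with edgeR, and neither was any of the 16387 genes tested (0% of all genes). At an unadjusted p under 0.05 there were 4 members in treated against untreated p53-/- lymphomas (1915 genes), 3 in treated p53+/- against treated p53-/- (866 genes) and 2 in treated p53+/- against untreated p53-/- (1039 genes). DESeq2 and limma-voom also called 0 members. The median member differences were 0.14, 0.05 and 0.19, with the 3 comparisons in the order just given. The members with the smallest p were Rpl15, higher by 0.57 ± 0.23 in treated than untreated p53-/- lymphomas (adjusted p = 0.346), Rps4x, higher by 0.54 ± 0.17 in treated p53+/- than treated p53-/- (adjusted p = 0.937), and Rpl36a, higher by 0.68 ± 0.22 in treated p53+/- than untreated p53-/- (adjusted p = 0.776). Rps4x and Rpl36a are X-linked, and labelled sex was uneven between these groups: 1 of 10 untreated p53-/-, 5 of 9 treated p53-/- and 9 of 12 treated p53+/- mice were female. Without sex as a covariate the differences were 0.56 for Rps4x and 0.63 for Rpl36a.

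Levels between members were compared per length only, as CPM per kilobase of the principal transcript in normal thymus. The highest were Rps27 at 2126 ± 695 (SD, n = 8), Rplp1 at 2006 ± 531 and Rpl41 at 1807 ± 567.6. The order of these 3 lay within their spread. The lowest were Rpl5 at 10.9 ± 4.5, Rpl10 at 21.4 ± 5.9 and Rpl12 at 31.6 ± 8.5, which with copies added stood at 525, 785 and 574. The low end of this order therefore rested on where reads of copies were placed.

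Genes related to the family but outside the symbol rule moved with it in part. Of 5 further ribosomal proteins, Rpsa, Rps3a1 and Rack1 were called higher in each comparison. Fau differed by -0.74, -0.74 and -0.64, called in treated p53-/- lymphomas (adjusted p = 0.0465). Rack1 lay above every normal (9.30 to 10.24 log2 CPM) in all 31 lymphomas. Of 7 tested paralogues, 4, 3 and 4 were called higher and 1 lower. Of all genes 23.2%, 25.4% and 25.6% were called higher and 17.6%, 26.7% and 25.3% lower. The paralogue called lower, Rps4l, had fold changes of -3.10, -3.34 and -3.33 and lay below every normal in all 31 lymphomas. Rpl22l1, the paralogue of Rpl22, differed by 0.12, -0.11 and 0.00, none called, and Rps27l, a p53 target, by 0.71, 1.37 and 1.1. Rpl10l was at 0 in every mouse.

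Other lists of the translation machinery were set against the same shares of all genes, 23.2%, 25.4% and 25.6% called higher and 17.6%, 26.7% and 25.3% called lower. Of 16 translation factors with a terminal oligopyrimidine motif 12, 12 and 14 were called higher and 0 lower, with medians of 0.79, 0.88 and 1.03. Npm1, the nucleolar histone chaperone, rose by 1.37, 1.60 and 1.55, and Eef1a1 by 0.69, 0.67 and 0.68. Of 40 ribosome biogenesis genes 37, 38 and 39 were called higher, with medians of 1.52, 1.52 and 1.48. Gnl3, which encodes nucleostemin, rose by 2.26, 2.75 and 2.59. Of 77 mitochondrial ribosomal protein genes 33, 48 and 46 were higher and 2, 2 and 2 lower, with medians of 0.41, 0.73 and 0.60. Of 15 regulators of translation and ribosome synthesis 7, 6 and 7 were higher and 2, 4 and 4 lower, the latter near the shares of all genes. Among them Myc rose by 2.29, 2.16 and 2.06 and Larp1 by 1.54, 1.24 and 1.35, while the kinase gene Pim1 had fold changes of -1.02, -1.83 and -1.06 and the S6 kinase gene Rps6kb2 of -0.54, -0.76 and -0.77, all called. Pim2 (-0.90 and -0.68) and Eif4ebp1 (-1.01 and -1.12) were called lower in both treated groups. These genes were chosen after their values were seen. The list's medians were 0.35, 0.29 and 0.19.

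Across the 31 lymphomas, the genes outside the family whose levels went most closely with the family level were Rps13-ps2 (r = 0.94), Naca (0.91), Ndufa7 (0.89), Snrpd2 (0.87), Rpl17-ps8 (0.87), Psmb1 (0.86), Eef1b2 (0.85) and Ndufv2 (0.84), given as a description. Both pseudogenes share sequence with a member. Within the family, the median r of a member with the mean of the others was 0.75, and 27 members reached 0.8. Rps13 and Rpl13a had the highest value, 0.94, and Rpl21 (-0.35), Rpl29 (-0.12) and Rpl10 (-0.03) the lowest.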

How the data were processed

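Total RNA from frozen thymic tissue of 40 mice was sequenced as 81 libraries. The authors deposited RSEM expected counts per gene, which need not be whole. The submitters' processing notes name CASAVA 1.8, fastp, STAR 2.7.2b, RSEM 1.1.17 and the build mm10. The annotation and the strand setting are not given in the sources used here, and overlapping or near-identical genes are therefore uncertain. Expected counts were rounded after biopsies of a mouse were summed. Depth per mouse ran from about 5009300 to 98591000 counts.

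Comparisons were fitted with edgeR 4.0.16 (R 4.3.3): TMM scaling, its default filter on low counts, robust quasi-likelihood test, labelled sex as a covariate (it disagreed with sex-linked expression in 3 mice, left out in an alternative), Benjamini-Hochberg adjustment over all genes tested and a threshold of 0.05. Lymphoma groups and normal thymus shared 1 fit, and the lymphoma groups were compared in a fit without normals. Departures used library sizes that equalise the members' mean log2 CPM. The fits were tested on simulated data. Near copies were found by aligning transcripts of annotated or named pseudogenes to the members' (GENCODE M21). DESeq2 1.42.0, limma-voom 3.58.1, other scalings and filters, left-out mice and single-biopsy tumours were alternatives. Named members were chosen by function (Rpl5, Rpl10, Rpl11, Rpl22, Rplp0, Rps6, Rps19 and the X-linked members), by the 4 highest and 4 lowest called departures per comparison, by the 6 largest and 3 smallest spreads, by the 3 highest and lowest levels per length and by the smallest p between lymphoma groups; genes outside the symbol rule were the listed further proteins and paralogues and the 8 most like the family level. Rpl35, Rps9, other list members and members named for their chromosome were chosen after their values were seen. Some members under these rules are not reported here. The members and all gene lists were chosen with earlier results of these data known.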

Additional observations from a re-analysis of the deposited data

Results flagged for a closer look

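In groups of 4 to 10 mice, a mouse was marked where its gap to the nearest other mouse, relative to the range of its group, passed Dixon's critical value. Of 96 groups of values checked, 23 values were marked, and chance marks about 1 in 20. The 12 treated p53+/- lymphomas were too many for the test. Family values of 1 mouse are not independent of its values for single members.

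Treated p53-/- lymphoma mouse 857 was the highest of its group for the family share (9.98% of counts, next 6.98%), the family level (10.05 log2 CPM), the level with near copies added (10.95), Rpl11 (11.09), Rpl22 (10.71), Rpl27a (9.17), Rpl34 (10.16) and Rps19 (10.80). It was the lowest for Rpl21 (3.68 log2 CPM, next 6.81). Its part in the results was examined by leaving it out: 57 members were then called higher in treated p53-/- lymphomas and 1 lower.

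Among untreated p53-/- lymphomas, mouse 643 had the lowest family share (2.63%, next 4.89%), and ribosomal RNA genes took 28.1% of its counts. Mouse 562 had the highest Rpl10 (5.96 log2 CPM) and the lowest Rpl24 (6.07), Rpl39 (6.89) and Rpl9 (7.59, next 9.42). All have near copies, as do 74 of the 75 members. In mouse 562, 6.01% of counts were mitochondrial.

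In normal thymus, mouse 624, the shallowest, had the highest Rpl24 (8.23 log2 CPM), Rpl36a (7.35), Rpl39 (8.28), Rps19 (9.47) and Rps4x (10.40). Mouse 387, with the highest fat markers, had the lowest Rpl27a (7.82), Rpl35a (7.71) and Rps14 (8.42), and mouse 818 the lowest Rpl10 (2.89). What set these mice apart was not tested.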

How the results depend on the processing

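Over all alternatives, members called higher numbered 42 to 64, 44 to 60 and 54 to 68 in the 3 lymphoma groups, in the report's order, and none was called between lymphoma groups. Members called lower numbered 2 (treated p53-/-) and 1 (treated p53+/-) with single-biopsy tumours, and 1 (treated p53-/-) without mouse 857. Requiring a departure of at least 0.5 left 7 above and 5 below the family, 11 and 11, and 9 and 8, and single-biopsy tumours left 11 above in treated p53+/-. Adding near copies (chosen after seeing the data) gave family shares of 5.21%, 8.14%, 8.80% and 8.73% and levels of 8.95, 9.86, 9.90 and 9.99 in normal thymus and the 3 lymphoma groups. Adding named pseudogenes gave levels of 8.53, 9.43, 9.48 and 9.54 and shares of 6.71% (untreated p53-/-) and 7.23% (treated p53+/-). The SD between mice of the family level became 0.462 (normal) and 0.375 (untreated p53-/-) with no scaling, 0.225 without mouse 624 (normal), and 0.254 with single-biopsy tumours and 0.268 without mouse 857 (treated p53-/-). The own-chromosome count became 20 of 71 in 18 single-biopsy tumours, where fewer tumours were tested and 13.2% of all genes were called. Departures of Rpl23a turned to 0.36, 0.33 and 0.38 and of Rpl30 to -0.07 (treated p53-/-) with named pseudogenes, and of Rps7 to -0.15 (treated p53+/-) with near copies. Other causes were not tested. No mouse had under 5000000 counts, so that alternative gave no separate value. No paired analysis was possible because mice of different groups share no replicate number. Splits among near-identical genes limit what can be said of single members.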
